A study of Mus musculus with 10 samples.

Results

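The cells described here are macrophages of the mouse pituitary, recognised by the RNA of complement component C1q. They were chosen on their measured transcripts: a barcode was taken when it passed the limits on cell quality and carried unique molecular identifiers (UMIs, each standing for a captured RNA molecule) of at least 2 of the 3 genes C1qa, C1qb and C1qc and of at least 1 of Tyrobp, Fcer1g and Ctss. This combination was found in 831 of the 22325 barcodes kept over 10 libraries, or 3.72%, and these cells held 1031642 of the 22666604 UMIs kept. Everything that sets them apart from other barcodes is given as a description without a test, because the choice was made on the same counts.

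Macrophages are resident phagocytes that clear dying cells and debris, display peptides on MHC class II molecules and depend on signalling through the receptor Csf1r. C1q, the recognition subunit of the classical complement pathway, binds antibody complexes and dying cells, and it is made mainly by macrophages rather than by the liver. Tyrobp and Fcer1g encode the adaptor chains that pass signals from Fc and Trem receptors, and Ctss encodes cathepsin S, a lysosomal protease that trims the invariant chain of MHC class II. In the pituitary such cells lie among the hormone-secreting cells of the anterior lobe and in the neural posterior lobe, which is an extension of the brain.

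Whole pituitaries of CD1 mice, an outbred strain, were dispersed without enzymes and profiled by single-cell RNA sequencing. WT females and WT males aged 8 weeks gave 3 libraries each, of which number 1 of each sex came from the 10X Genomics platform and numbers 2 and 3 from Drop-seq. Drop-seq libraries were also made from 1 sample of females aged 8 weeks that carried the mt/hGRF transgene, in which a metallothionein promoter drives human growth hormone-releasing factor, from 1 WT virgin female sample aged 13 weeks and from 2 WT lactating female samples aged 13 weeks. The labels give the physiological condition of the mice aged 8 weeks as not determined, while the study describes the WT ones as sexually naïve and the mt/hGRF females as virgin. The name virgin is used below only for the library aged 13 weeks. The study describes lactating 2 as a pool of 2 mice and the virgin sample and lactating 1 as 1 mouse each. It gives differing numbers of mice for the Drop-seq samples of WT mice aged 8 weeks and for the mt/hGRF sample, so whether these are pools is not settled here. Libraries are named below by group and replicate number, and p-values measure only the spread between these libraries, since the labels do not tie each of them to its own animal.

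The libraries differed in depth and in how they were filtered. Kept barcodes numbered 807 to 5253 per library, and the median member held 633 to 1832 UMIs, against 522 to 1231.5 in the other kept barcodes of the same libraries. The 10X Genomics libraries were the deepest. Ighm had rows only in the 8 Drop-seq tables and Itgam only in the 2 10X Genomics tables. Ftl1 had a row in all 10, but reached 86.9 and 116.0 UMIs per 10000 in the members of the 10X Genomics libraries and at most 2.59 in those of Drop-seq. Over the 45 pairs of libraries 12 barcode sequences were shared among kept barcodes, and 0 among members. WT female 2 gave only 17 members and was left out of the fits of expression, so that levels below are means over the other 9 libraries, which span all groups. A further 351 barcodes carried the same gene combination outside the limits on quality, and 189 of these had a share of ribosomal pseudogene UMIs above the limit. They were unevenly spread, with 63 in WT female 2 and 9 in lactating 2.

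Most members were well inside the threshold. All 3 C1q genes were seen in 728 members and 2 of them in the other 103, and 614, 161 and 56 members had UMIs of 3, 2 and 1 of the partner genes. Just inside, members with 2 C1q genes held a median of 3 to 6 C1q UMIs, depending on the library, while the median over all members ran from 9 in WT female 2 to 51 in WT female 1. Just outside were 58 barcodes with 1 C1q gene and a partner gene, which held at most 1 to 7 UMIs of that gene, and 11 barcodes with at least 2 C1q genes and no partner. Members held 94.1% to 99.0% of all C1q UMIs of the kept barcodes of each library.

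The C1q genes are neighbours on chromosome 4 and lie on the minus strand in the order C1qb, C1qc and C1qa from the lower coordinate (GRCm38, C1qb 136880129 to 136886187, C1qc 136889804 to 136893065 and C1qa 136895917 to 136898803). Their levels, which the choice of cells fixed to be high, were 70.3 ± 33.2, 58.6 ± 9.8 and 56.1 ± 5.5 UMIs per 10000 for C1qa, C1qb and C1qc (SD, n = 9 libraries). C1qa stood at 120.5 and 129 in the 10X Genomics libraries and between 36.2 and 78.2 in those of Drop-seq, so that its groups by platform did not overlap, whereas C1qb and C1qc ranged from 46.0 to 73.5 and from 47.0 to 64.4. The sequence before the start of C1qb is shown because the cells were chosen by this gene, and no measurement here bears on it. It is the window of 250 bases before the gene start in RefSeq on GRCm38.p6, read 5′ to 3′ on the minus strand, at chr4:136886201-136886450, and lies outside the GENCODE gene given above. Capitals mark the letters ACTTCCT, the reverse complement of AGGAAGT, a core bound by ETS factors such as the macrophage factor PU.1.

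C1qb: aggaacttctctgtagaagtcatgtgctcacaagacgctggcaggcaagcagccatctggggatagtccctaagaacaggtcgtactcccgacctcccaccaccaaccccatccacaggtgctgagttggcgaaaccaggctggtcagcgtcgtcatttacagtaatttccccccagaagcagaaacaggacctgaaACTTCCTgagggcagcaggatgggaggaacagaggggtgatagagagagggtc

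The match begins 53 bases before the RefSeq start of C1qb. AGGAAGT was searched on both strands, and 2525 of 32851 windows of 250 bases before gene starts held it, or 7.69%. A match is a description of the letters and not of a bound site. The windows of C1qa and C1qc are not shown here. That of C1qc also held 1 match, beginning 195 bases before its RefSeq start, and for C1qa no window was available.

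Macrophage genes that the choice did not use were present throughout. Of 22 genes listed for macrophage identity, 20 were above the other kept barcodes in 9 of 9 libraries, where 39.4% of the 3164 genes with at least 50 UMIs in members were so. The 2 exceptions were Itgam, with a row on 1 platform only, and C5ar1, at 0 in 1 library. Csf1r, the receptor for the growth factor that macrophages need, was at 12.5 ± 3.7 UMIs per 10000 in members and 0.019 in other barcodes, a ratio of 672. Its UMIs were seen in 55.6% of members, and in 24.9% once each cell had been thinned to 300 UMIs. Of the 49 endothelial barcodes, which should lack it and held a median of 1292 UMIs against 888 in members, 0 had a UMI of Csf1r, which allows a share with such a UMI of up to 6.12% and sets no limit on expression.

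The 25 genes with the largest ratios over other barcodes, beyond the genes of the choice, were ranked with 0.01 UMIs per 10000 added to both levels, while the ratios printed are plain. They were led by Fcrls, an Fc receptor-like gene of microglia, at 8.68 ± 3.23 UMIs per 10000 and a ratio of 1102. Csf1r, Trem2, the lipid-sensing partner of Tyrobp, and P2ry12, an ADP receptor of microglia, came next in this order, with plain ratios of 672, 630 and 600, below those of the sparser genes Slamf9 (1060), Gpr34 (785) and Adgre1 (695). Trem2 was at 8.62 ± 2.53 and P2ry12 at 7.68 ± 1.61. In the ranking Gpr34, Fcgr3, Ms4a7, Cx3cr1, Siglech and Cd14 followed. Cx3cr1, the fractalkine receptor, was at 17.4 ± 3.9 and in 63.2% of members. Cd74, H2-Aa and H2-Ab1 of MHC class II were also among the 25. Their spread between libraries was wide: Cd74 ran from 27.4 to 249.6.

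**Figure D1:**
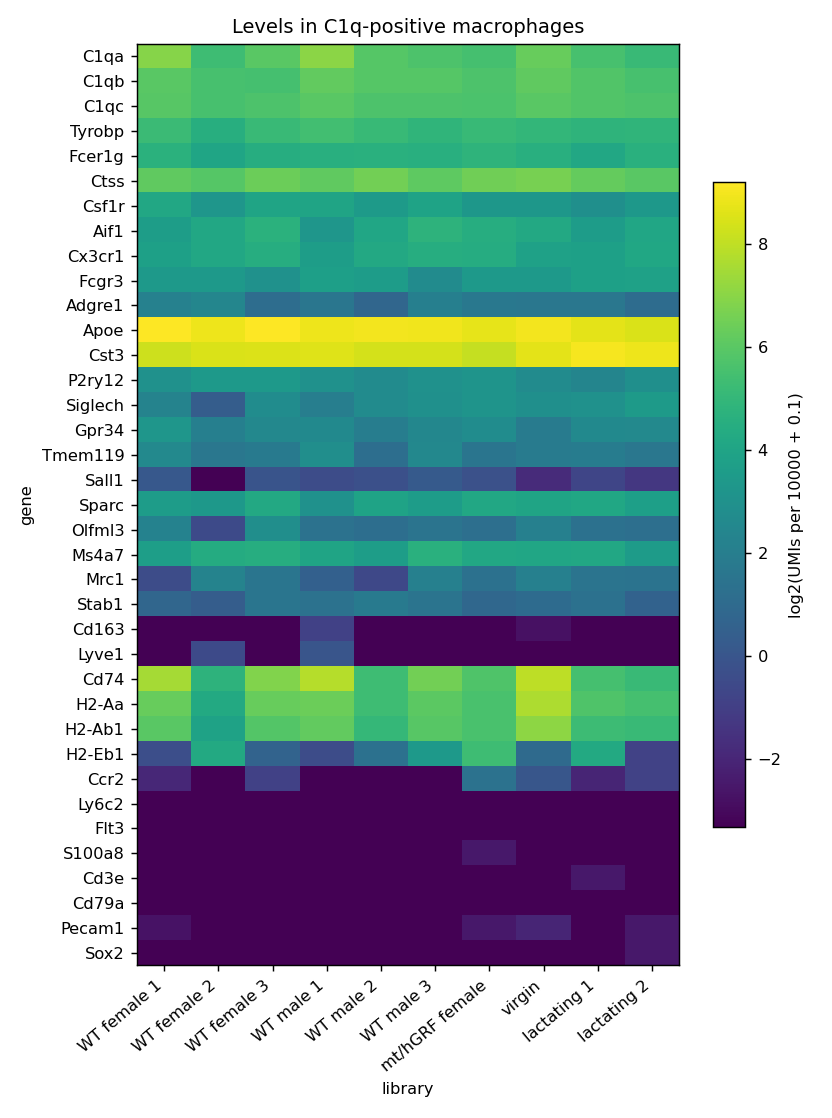
Levels in members of the genes of the choice, of macrophage, microglia and MHC class II genes and of markers of other cells, coloured by the log2 of UMIs per 10000 plus 0.1, with 1 row a gene and 1 column a library. Csf1r, P2ry12 and C1qc are at similar levels in every column, and Cd74 runs from 27.4 in WT female 2 to 249.6 in the virgin library.

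Apoe, the lipid carrier apolipoprotein E, was at 481 ± 74 UMIs per 10000 (SD, n = 9 libraries), from 364 in lactating 2 to 586 in WT female 3, against 1.82 in other barcodes, a ratio of 264. Apoe was also at 157 in the 20 antigen-presenting barcodes, which had no C1q UMI but UMIs of MHC class II genes and of a partner gene. It was seen in 93.5% of members and, at 5.39 UMIs per 10000, in 46.9% of endothelial barcodes. Cst3, which encodes the protease inhibitor cystatin C, was seen in 99.6% of members at 378 ± 80. These transcripts, with Ctss at 79.1 ± 12.6, were abundant in all libraries.

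Among the 3164 genes with at least 50 UMIs in members, 39.4% were higher than in other barcodes in 9 of 9 libraries. Genes of the lysosome were higher in members than in other barcodes in 9 of 9 libraries for 19 of 19 listed genes. Among them were Ctsd at 44.1 ± 12.7 and Ctsb at 32.7 ± 5.9 UMIs per 10000. The same held for 13 of 13 genes of Fc and Tyrobp signalling and for 8 of 8 genes of MHC class I. Among 8 genes of MHC class II the 6 with at least 50 UMIs were higher in 9 of 9, and H2-Oa and Ciita were sparse, with 28 and 17 UMIs. All 10 listed microglia genes were higher in 9 of 9 libraries, among them Sall1, a transcription factor that marks brain microglia, at 0.68 ± 0.30 and in 5.05% of members. Sparc, one of these genes, was also seen in 67.3% of endothelial barcodes.

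Beyond C1q itself the complement system was thinly represented. Of 14 other complement genes, 4 had at least 50 UMIs in members. The 39.4% given above covers only genes with at least 50 UMIs, so it is no like share for this whole list. In 9 of 9 libraries 4 of the 14 were higher. Among them were the receptor gene C3ar1 at 3.50 ± 1.22, the integrin gene Itgb2 at 1.43 ± 0.28 and C2 at 0.48 ± 0.42 UMIs per 10000. The enzymes that C1q activates were near 0, with 3 UMIs of C1ra and 0 of C1s1 over all members, which allows up to 3 UMIs of C1s1 among 1031642. C3 gave 14 UMIs and C4b 16.

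Chemokine and cytokine genes were mostly low. Of 20 listed, 11 had at least 50 UMIs in members. The share of 39.4%, which covers only genes with at least 50 UMIs, is no like share for this list either. In 9 of 9 libraries 10 of the 20 were higher. They were led by Cxcl16 at 6.61 ± 1.71 and Ccl12 at 5.55 ± 2.29 UMIs per 10000. Il1b, encoding interleukin 1β, ranged from 1.19 to 11.6, and WT female 3 was the highest. Il10 and Cxcl1 had 0 UMIs.

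Genes of macrophages at tissue borders were mostly sparse, and 4 of the 12 listed had at least 50 UMIs in members. Here too the 39.4% of genes with at least 50 UMIs is no like share for the whole list. Of these 12, 3 were higher in 9 of 9 libraries. They were Ms4a7, the mannose receptor gene Mrc1 in 20.6% of members and the scavenger receptor gene Stab1 in 18.7%. The other 9 were seen in 0.12% to 4.93% of members, with Pf4 the most frequent and Lyve1, Cd163, Timd4 and Cd209f in 0.12% to 0.24%.

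Markers of other cells that a pituitary suspension could hold were mostly low or at 0, except some listed for dendritic cells and for red blood cells. The 6 red blood cell genes summed to 277 UMIs per 10000 in mt/hGRF, 23.6 in WT female 1 and 1.07 to 16.7 elsewhere. In other barcodes the sum was 80.3 to 668. The neutrophil, B cell and pituicyte lists each held 1 gene that was higher in members in 9 of 9 libraries. For B cells it was not Ighm, which has no row on 10X Genomics. Of 12 genes of T and NK cells, 9 had 0 UMIs, and their summed level was 0 to 0.59 UMIs per 10000 in members. Of 10 monocyte genes, 5 had 0 UMIs, Ly6c2, Chil3, Vcan and Hp among them, and the sum over the list ran from 0 to 4.72. It was highest in lactating 2, and of the 2.61 in the mt/hGRF library the chemokine receptor gene Ccr2 gave 2.54. Of 9 endothelial genes, 5 were at 0, Plvap and Cldn5 among them. Cd79a, Ms4a1 and Igkc of B cells were at 0 too, whereas Ighm, in 19.0% of members, reached 6.54 in WT female 2. Of 12 genes listed for dendritic cells, 5 were higher in members in 9 of 9 libraries, Cst3, Irf8, Itgax, Ifi30 and Naaa. In that list 5 genes had at least 50 UMIs in members and 6 had 3 or fewer, of which 3 had 0, Flt3, Xcr1 and Ccr7. The 39.4% given above covers only genes with at least 50 UMIs, so it is no like share for the whole list. The summed level of that list was 281.6 to 524 UMIs per 10000 in members and 4.82 to 9.15 in other barcodes, and Cst3, which macrophages also make, gave 273.6 to 518.8 of it. Irf8, a transcription factor gene of both macrophages and dendritic cells, was at 4.85 ± 1.53 and in 32.7% of members, and Itgax was in 4.93%. Genes of macrophage identity were thus present in every library beside these, and no cell type name beyond the label of macrophage is given here.

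Hormone RNA was present in nearly all members. Gh, growth hormone, stood at 10.3 to 389.8 UMIs per 10000 in members against 490.3 to 2219 in the other barcodes of the same libraries, and Prl, prolactin, at 2.79 to 399 against 111 to 1305. The 7 hormone genes made up 0.32% to 7.64% of the UMIs of members and 13.7% to 28.1% of those of other barcodes. In the 49 endothelial barcodes, which do not make these hormones, the share was 4.65% to 39.7%. It lay above that in members in 9 of 10 libraries. The exception was lactating 1, with 7.64% in members and 5.33% in its 3 endothelial barcodes, where 1 member alone held 3607 hormone UMIs. Each library had only 1 to 11 endothelial barcodes, and the virgin library had 2, at 4.65% against 4.37% in members. How much of the hormone RNA in members was background and how much expression was not tested. Over all libraries 82 members, 0 to 25 per library, carried UMIs of at least 3 of 17 other genes of hormone-secreting cells. No doublets were removed.

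**Figure D2:**
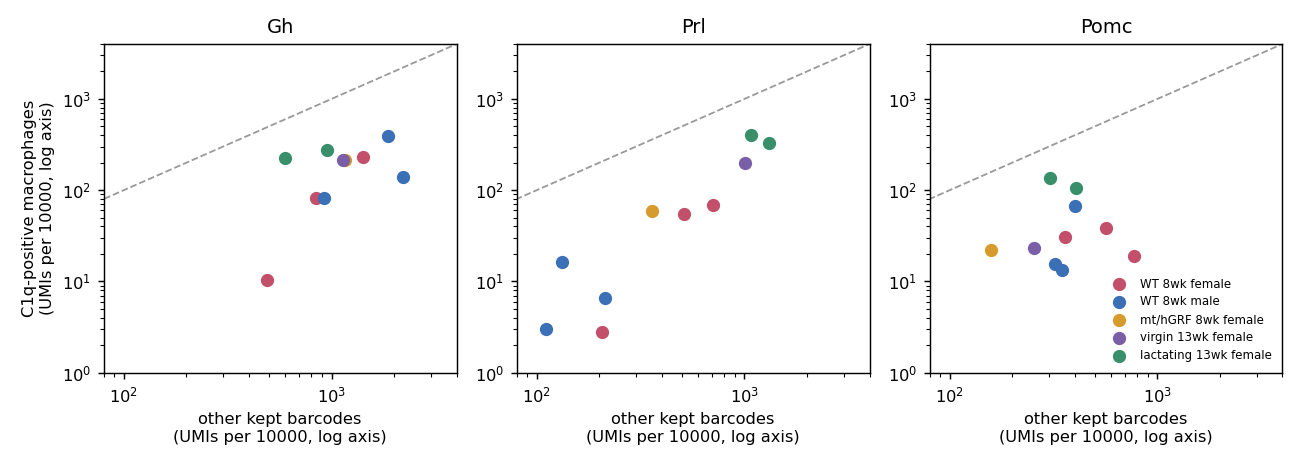
Hormone RNA in members (vertical axis) against other kept barcodes (horizontal axis), both in UMIs per 10000 on log axes, with 1 point a library. Members lie below the other barcodes in every library, and the lactating libraries lie nearest to them, with Gh in members at 38.0% and 28.5% of its level in others.

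The members were not uniform. P2ry12 and Siglech, known from microglia, and Ms4a7, known from border macrophages, were seen in 32.9%, 34.7% and 43.0% of members. A UMI of Ms4a7 without P2ry12 or Siglech was found in 298 members (35.9%), P2ry12 or Siglech without Ms4a7 in 313 (37.7%), both kinds in 59 (7.10%) and neither in 161 (19.4%). By library, the share with both kinds ran from 1.92% in WT male 2 to 18.2% in WT female 3. Over all libraries, members with neither were shallow, with a median of 642 UMIs against 888.5 and 1048 in the first and second subsets. Members with both kinds were the deepest, with a median of 1489. How far missed UMIs shaped the split was not tested. The subsets were defined after the values had been seen, so the differences between them carry no test.

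Both subsets were found in every library. The Ms4a7 subset made up 29.9% to 52.9% of members and the P2ry12/Siglech subset 27.0% to 53.8%. The latter was largest in lactating 2, where 63 of 117 members were in it, and smallest in WT male 3, with 10 of 37.

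**Figure D3:**
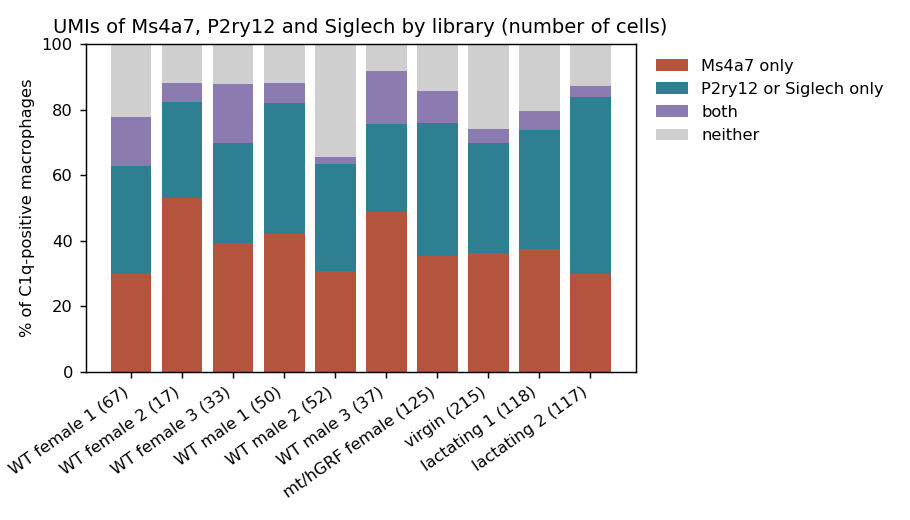
Percent of members in each library with UMIs of Ms4a7 only, of P2ry12 or Siglech only, of both kinds or of neither, with the number of members beside each library's name. Both subsets are present in all 10 libraries, and the P2ry12/Siglech subset reaches 53.8% in lactating 2.

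Genes that the split did not use differed between the subsets in the same direction across libraries. Over the 9 libraries with at least 10 cells of each subset, 43 of 1523 genes with at least 100 UMIs (2.82%) were higher in the Ms4a7 subset in every library and 70 (4.6%) were higher in the P2ry12/Siglech subset. Of the 15 with the largest ratios in the first group, ranked with 0.1 added to both levels, 4 were of MHC class II. The plain ratio was 163 for Mndal, 61.4 for Plbd1, 50.8 for H2-Eb1 and 31.7 for Ifi203, all sparse in the other subset. The more abundant H2-Aa was at 149.8 ± 58.3 UMIs per 10000 in the Ms4a7 subset and 12.9 ± 29.7 in the other, H2-Ab1 at 119.7 ± 34.5 and 10.7 ± 21.1, and Cd74, the invariant chain, at 217 ± 133 and 23.2 ± 42.9 (SD, n = 9 libraries).

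Other genes higher in the Ms4a7 subset in 9 of 9 libraries were Apoe at 690.2 ± 156.8 against 237 ± 89, and Lyz2, lysozyme, at 46.5 ± 11.9 against 11.0 ± 6.1. Apobec1, a cytidine deaminase, was at 10.8 ± 3.1 against 1.48 ± 0.50, and the chemokine gene Cxcl16 at 10.5 ± 2.0 against 3.24 ± 2.35. Mndal and Ifi203 belong to the interferon-inducible p200 family.

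Among genes higher in the P2ry12/Siglech subset was Sparc, which encodes a secreted matrix protein made by microglia, at 31.4 ± 8.8 UMIs per 10000 against 1.21 ± 1.03. Its lowest value in that subset, 18.0, lay above its highest in the Ms4a7 subset, 2.62. P2ry13, a neighbour and relative of P2ry12, was at 4.25 ± 1.92 against 0.32 ± 0.26, Ltc4s, leukotriene C4 synthase, at 4.85 ± 2.11 against 0.44 ± 0.64, and the tetraspanin gene Cd9 at 17.1 ± 7.0 against 2.90 ± 1.25. Crybb1 was at 1.98 ± 1.49 in this subset and had 0 UMIs in the Ms4a7 subset of all 9 libraries.

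Other microglia genes went the same way. Gpr34 was at 9.96 ± 2.74 against 1.99 ± 0.69 and Olfml3 at 5.89 ± 3.32 against 1.23 ± 0.94 UMIs per 10000, each higher in 9 of 9 libraries. Sall1 had 0 UMIs in the Ms4a7 subset of every library. Tmem119, a further microglia gene, was at 5.95 ± 3.41 against 3.09 ± 1.95 and was higher in 7 of 9. Cst3, Trem2, Csf1r, Cx3cr1 and the protease genes Ctsd, Ctsl and Lgmn were also higher in this subset in 9 of 9, with Trem2 at 13.6 ± 4.5 against 4.38 ± 2.10.

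The C1q genes, whose UMIs every member of both subsets was chosen to carry, differed less between the subsets. C1qa was at 75.4 ± 35.7 UMIs per 10000 in the P2ry12/Siglech subset and 64.7 ± 32.8 in the Ms4a7 subset, C1qb at 62.7 ± 13.1 and 55.7 ± 13.2 and C1qc at 62.2 ± 7.1 and 51.3 ± 9.5, and they were higher in the former in 8, 6 and 7 of 9 libraries. Cd68, Spi1, which encodes PU.1, and Fcer1g, itself a gene of the choice, had log2 ratios between -0.10 and 0.08. The other 2 partner genes of the choice were higher in the P2ry12/Siglech subset. Ctss was at 100.5 ± 15.7 against 61.5 ± 11.2, in 9 of 9 libraries, and Tyrobp at 37.4 ± 4.6 against 31.2 ± 6.4, in 8 of 9. Mrc1 was at 2.88 ± 1.88 in the Ms4a7 subset and 1.51 ± 1.43 in the other. Gh was higher in the Ms4a7 subset in 9 of 9 libraries, at 187 ± 118 against 119.1 ± 92.1, and the part of background RNA in the differences was not tested.

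MHC class II varied between libraries within each subset. Cd74 in the P2ry12/Siglech subset was at 134 UMIs per 10000 in the virgin library, 36.1 in WT female 1 and 0 to 8.70 in the other 8. In the Ms4a7 subset it ranged from 32.1 in WT female 2 to 408 in WT female 1, with 342 in the virgin library. The virgin library was thus the highest of the 10 in the first subset and the third highest in the second, after both 10X Genomics libraries.

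The count of cells gave the same picture. At least 10 UMIs of Cd74, H2-Aa and H2-Ab1 together were seen in 69.4% of the P2ry12/Siglech subset of the virgin library and in 0% to 31.8% of that subset elsewhere. In the Ms4a7 subset the share was 98.7% in the virgin library and 22.2% to 90.0% elsewhere. With each cell thinned to 300 UMIs, at least 3 of these UMIs were left in 72.2% of the P2ry12/Siglech subset of the virgin library and in 0% to 13.6% of it in the other 9. Cd74 in the barcodes that were no members was also highest in the virgin library, at 1.22 UMIs per 10000 against 0.12 to 0.97 in the others, and its part in these shares was not tested. With 1 virgin library, its condition and its preparation cannot be told apart.

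**Figure D4:**
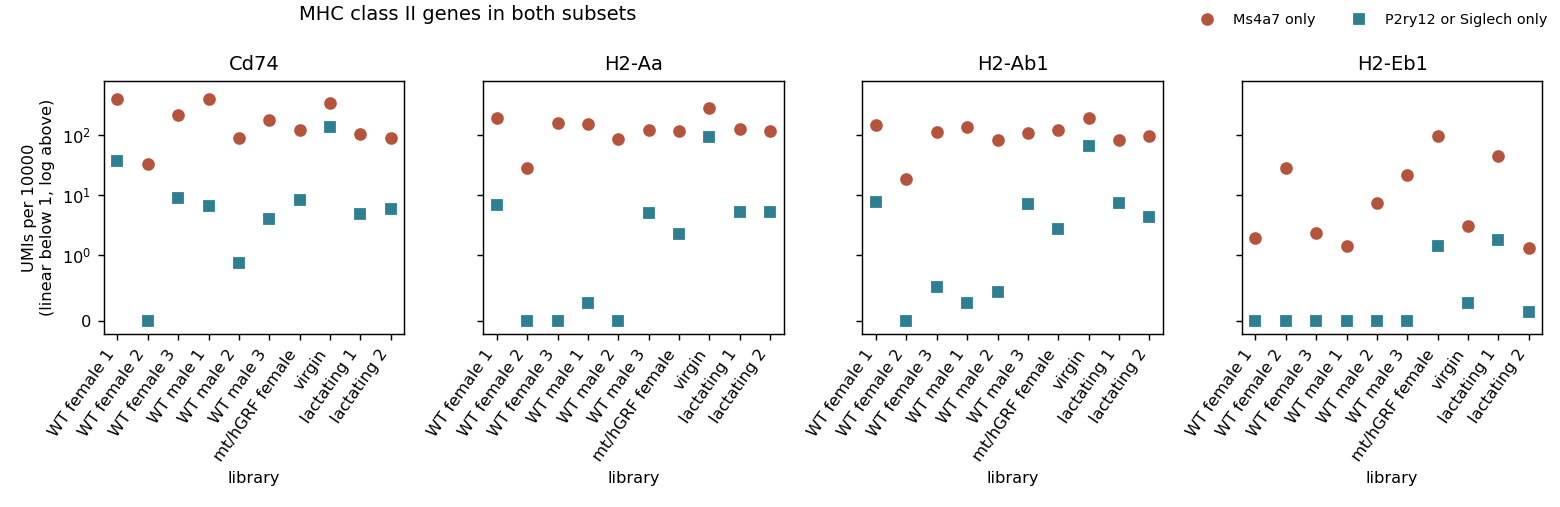
Levels of MHC class II genes in the Ms4a7 subset and the P2ry12/Siglech subset of each library, in UMIs per 10000 on an axis that is linear below 1 and logarithmic above. The Ms4a7 subset is higher in every library, and the P2ry12/Siglech subset of the virgin library stands out, with Cd74 at 134.

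The study set out to compare the cells of the pituitary by sex, in lactation and with the transgene, and the share of members among kept barcodes was compared along the same lines. The share was 4.13% (95% exact binomial interval 3.22% to 5.22%), 2.11% (1.23% to 3.35%) and 2.69% (1.86% to 3.76%) in WT females 1 to 3. It was 3.11% (2.31% to 4.07%), 6.25% (4.70% to 8.12%) and 1.91% (1.34% to 2.62%) in WT males 1 to 3. The mt/hGRF library had 4.52% (3.77% to 5.36%), the virgin library 5.93% (5.18% to 6.75%) and the lactating libraries 4.47% (3.71% to 5.33%) and 2.23% (1.85% to 2.66%). Intervals cover counting error only. Libraries of the same group differed by more than these intervals, as WT males 2 and 3 and the lactating pair did. A share also depends on how many other cells were recovered, so more members and fewer other barcodes cannot be told apart.

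**Figure D5:**
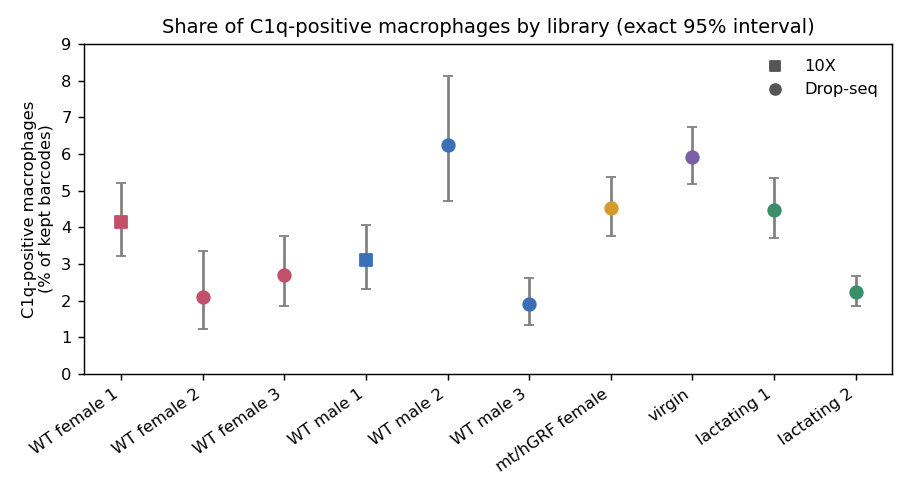
Percent of kept barcodes that were members in each library, with the exact 95% binomial interval; squares are 10X Genomics and circles Drop-seq libraries. WT male 2 at 6.25% and WT male 3 at 1.91% are the extremes, and the WT males and females overlap.

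In none of the 3 comparisons of shares did the exact test pass 0.05, and none could have done so with these numbers of libraries. Males had 3.75% ± 2.24 and females 2.98% ± 1.04 (SD, n = 3 each), a difference of 0.78 percentage points (exact permutation test, two-sided, p = 0.7, smallest possible 0.1). Within pairs, males were lower on 10X Genomics and in WT libraries 3, with differences male minus female of -1.03 and -0.79 points, and higher by 4.14 points in WT libraries 2, so that the direction was not shared. Without WT male 2 the pooled difference was -0.47 points. Lactating libraries had 3.35% ± 1.59 (SD, n = 2) against 5.93% in the virgin library, a difference of -2.58 points (exact permutation test, two-sided, p = 0.667, smallest possible 0.333). It was -1.46 points without lactating 2 and -5.78 points among barcodes with at least 500 UMIs. The mt/hGRF library stood 2.12 points above the 2 Drop-seq libraries of WT females, at 2.40% ± 0.41 (exact permutation test, two-sided, p = 0.333, the smallest possible), and 3.66 points above them among barcodes with at least 500 UMIs.

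The limit on ribosomal pseudogenes moved some shares. Without it WT female 2 would have had 59 members among 978 barcodes, or 6.03%, and WT male 2 74 among 984, or 7.52%. The difference of the mt/hGRF library was then 0.25 points and that between the sexes 0.044 points. Comparisons of the share that include WT female 2 therefore rest on this limit.

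Expression in members was compared between groups on UMIs summed per library, in a fit of edgeR over the 9 libraries with at least 20 members and 4649 genes. Between males and females 4 genes passed an adjusted p of 0.05, or 0.086% of those tested, with 1 higher (0.0215%) and 3 lower (0.0645%) in males. An unadjusted p under 0.05 was reached by 170. Xist, the non-coding RNA of the inactive X chromosome, was at 16.3 and 9.67 UMIs per 10000 in WT females 1 and 3 and at 0 in all 3 male libraries. It was at least 91.3-fold higher in females against a floor of 3 UMIs over the male libraries (fitted log2 fold change -10.13 ± 0.88, SE, adjusted p 1.15e-17 by edgeR's quasi-likelihood test), which matches the labels. Of the Y-linked genes, Ddx3y and Eif2s3y had UMIs in the members of all 3 male libraries, while Uty had 0 in WT male 1 and Kdm5d 0 in WT male 2. In female libraries 1 UMI of Eif2s3y was seen in WT female 3 and 1 of Kdm5d in each lactating library.

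The other 3 calls each rested on few cells or on hormone RNA. Cxcl13, a chemokine that attracts B cells (GRCm38, chromosome 5, 95956951 to 95961068), was at 12.5 in WT female 3 and 0 in the other 5 WT libraries aged 8 weeks, at least 15.4-fold higher in females against the same floor. All 58 UMIs came from 5 of 33 members, and the fitted log2 fold change of -9.01 ± 1.05 (adjusted p 9.74e-11) was 0 without that library. Fitted changes against groups at 0 depend on the prior count of the fit and are no bounds. Hba-a1, an α-globin gene, was lower in males by a log2 fold change of -2.84 ± 0.64 (adjusted p 0.0207), but 253 of the 288 UMIs in WT female 1 were in 1 barcode. Its direction turned without WT female 1 (5.60), without WT male 1 (5.72) and with Drop-seq libraries alone (5.63), where it did not pass. Gh was higher in males, at 138, 389.8 and 82.7 against 82.2 and 10.3 UMIs per 10000 (log2 fold change 2.71 ± 0.60, adjusted p 0.0203). Its log2 fold change was 0.72 without WT female 3, 4.62 without WT female 1, 1.71 without WT male 2 and 2.97 without WT male 3. The call was lost without WT female 3, without WT male 2 and without WT male 3. WT female 2, which had too few members for the fit, was at 230.1, above WT males 1 and 3, and with it included the log2 fold change was 1.17 with an adjusted p of 1. Within the pairs of libraries 1, 2 and 3 the male was higher in 3 of 3, and with the pair as a replicate block the log2 fold change was 1.44 with WT female 2 (adjusted p 8.14e-05) and 1.74 without it (adjusted p 2.53e-10). In the other barcodes Gh was at 2219, 1866 and 921 in males and at 846, 1412 and 490.3 in WT females 1 to 3, and the part of this in the result was not tested.

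With the pair of a female and a male library as a replicate block, since libraries of a pair deviated together (though Drop-seq libraries of different pairs did so too), 7 genes passed among 1529 tested in the WT libraries aged 8 weeks, 2 higher and 5 lower in males. WT male 2 has no partner in that fit. With WT female 2 included, an alternative chosen after seeing the data, 3 passed among 948, 1 higher and 2 lower. In the edgeR fit over 9 libraries and in DESeq2, without the replicate block, no gene of macrophage identity (22 tested), of the microglia list (9), the lysosome (19), Fc and Tyrobp signalling (12), MHC class II (6) or MHC class I (8) passed by sex. Of these lists 1, 1, 0, 1, 1 and 0 genes had an unadjusted p under 0.05 in that edgeR fit. The log2 fold changes of H2-Aa, Cd74 and Apoe were -0.31 ± 0.37, -0.36 ± 0.38 and -0.29 ± 0.41 (SE), each smaller than its error.

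In lactation the members of the lactating libraries had less RNA of some MHC class II genes than those of the virgin library. By edgeR's quasi-likelihood test 9 of 4649 genes passed an adjusted p of 0.05 (0.194%), with 7 lower in lactation (0.151%) and 2 higher (0.043%); an unadjusted p under 0.05 was reached by 197. The lone virgin library is assumed in this fit to vary as the other groups do. Cd74 was at 249.6 UMIs per 10000 in the virgin library and at 44.8 and 35.1 in the lactating ones, a log2 fold change of -2.64 ± 0.49 (SE, adjusted p 0.00091). H2-Aa, the α chain of the class II molecule I-A (GRCm38, chromosome 17, 34282744 to 34287823), was at 198.6 against 53.2 and 44.8 (log2 fold change -2.02 ± 0.47, adjusted p 0.0233).

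Of the 8 genes listed for MHC class II, 6 were tested and 2 passed, both lower. The estimates of 5 of the 6 were below 0, with a median log2 fold change of -1.71, where the median over all genes was 0.0069. H2-Ab1, the β chain partner of H2-Aa, was at 133.9 against 38.0 and 35.5 and had an adjusted p of 0.0508. H2-DMa and H2-DMb1, which load peptides, had estimates of -1.56 ± 0.44 and -1.25 ± 0.46 (adjusted p 0.132 and 0.606). H2-Eb1 went the other way, at 1.88 against 19.4 and 0.46, an estimate of 2.41 ± 0.64 (adjusted p 0.0866) in which the lactating libraries lay on either side of the virgin one.

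Across all 10 libraries the virgin one was the highest in Cd74 and in H2-Aa. Cd74 was at 182 and 222 in the 10X Genomics libraries and at 27.4 to 112 in the other 7 Drop-seq libraries. H2-Aa came to 84.5 in the next highest library, WT male 1. All 8 MHC class I genes had estimates below 0 in lactation, with a median of -0.69, and 0 passed in edgeR or DESeq2, with 1 at an unadjusted p under 0.05 in edgeR. B2m, their shared light chain, was at 114.0 in the virgin library against 91.1 and 86.9. Of 10 tested genes of the interferon response 8 had estimates below 0, with a median of -1.28, and 0 passed in edgeR or DESeq2, with 4 at an unadjusted p under 0.05.

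Among the other genes lower in lactation, AW112010, an interferon-inducible transcript, was at 6.93 UMIs per 10000 in the virgin library and 1.87 and 1.37 in the lactating ones (log2 fold change -2.09 ± 0.44, adjusted p 0.00703). The chemokine gene Ccl5 was at 1.83 against 0.30 and 0.076, from 38, 4 and 1 UMIs, and Lag3, a receptor that binds MHC class II, at 1.92 against 0.37 and 0.15, from 40, 5 and 2 UMIs (adjusted p 0.0135 for each). Ucp2, a mitochondrial carrier gene, was at 5.58 against 1.87 and 1.22 (adjusted p 0.0448). Cwc22, a splicing factor gene, was at 2.69 against 0.075 and 0.076, the smallest adjusted p of the comparison, 3.52e-06. From 56 UMIs against 2, its level was 35.7-fold higher in the virgin library (exact 95% counting interval 9.44 to 302). Cwc22 differed in the same way in the barcodes that were no members, at 11.0 against 0.26 and 0.12. In members, the virgin library was the highest of all libraries for AW112010, but not for the other genes of this paragraph. Lag3 and Ucp2 were higher in WT female 1, at 7.84 and 10.1 UMIs per 10000. Ccl5 was higher in mt/hGRF, at 2.31, and Cwc22 in WT male 3, at 5.42. In mt/hGRF, Lag3, Ucp2 and Cwc22 were at 0.38, 1.23 and 0.23.

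The genes higher in lactation were Chgb, chromogranin B of secretory granules, and Peg3, an imprinted gene. Chgb was at 7.36 against 31.7 and 37.2 UMIs per 10000 (log2 fold change 2.22 ± 0.50, adjusted p 0.0135) and Peg3 at 0.63 against 3.14 and 7.31 (3.03 ± 0.59, adjusted p 0.00141). In lactating 1, 192 of the 424 Chgb UMIs lay in 1 member and 60.4% in 3 of 118, and 59.5% of the 42 Peg3 UMIs in 3. Both were more abundant in other barcodes, Chgb at 63.5 against 76.5 and 119.9 and Peg3 at 21.4 against 32.3 and 28.2. All 10 tested non-hormone genes of hormone-secreting cells had estimates above 0, and hormone RNA made up 4.37% of the members' UMIs in the virgin library and 7.64% and 7.10% in the lactating ones. Without members that carried at least 3 such genes, the log2 fold change of Peg3 fell to 1.41 (adjusted p 1) and that of Ccl5, -3.21 in all members, was -2.85 (adjusted p 0.0631). Chgb had an adjusted p of 0.0102, Cd74 of 1.23e-06 and H2-Aa of 0.00426.

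These calls were lost with other sets of libraries, members or genes, while the estimates stayed below or above 0 as before. The fit without a filter on low counts, given below, also lost Xist by sex, at a log2 fold change of -10.09. It therefore cannot tell which calls hold. In a fit of only the 3 libraries compared all 9 were lost, with Cd74 at an adjusted p of 0.275 and a log2 fold change of -2.66 and Cwc22 at 0.275 and -5.03, and without a filter on low counts each of the 9 had an adjusted p of 0.957. Without lactating 2, Cd74 had an adjusted p of 0.0689, H2-Aa 0.393, AW112010 0.209, Ccl5 0.367, Lag3 0.393, Ucp2 0.548 and Peg3 0.0712, and without lactating 1 H2-Aa had 0.123. The log2 fold changes without lactating 2 were -2.42 for Cd74, -1.84 for H2-Aa and -1.82 for AW112010. With WT female 2 added to the fit, H2-Aa had an adjusted p of 0.19, Ucp2 0.208 and Chgb 0.0688. DESeq2 called Cd74 alone (adjusted p 0.0463, with H2-Aa at 0.0654). With Drop-seq libraries alone only Cwc22 passed, and Cd74 had an adjusted p of 0.19 at a log2 fold change of -2.64. Genes of macrophage identity (22 tested), the microglia list (9) and the lysosome (19) gave 0 calls in edgeR and in DESeq2 and 0 genes with an unadjusted p under 0.05, with Csf1r at -0.13 ± 0.43, P2ry12 at -0.02 ± 0.44 and Ms4a7 at -0.18 ± 0.44 (log2 fold change, SE).

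Members of the mt/hGRF library were compared with those of WT females, which also serve as the females of the comparison by sex. By edgeR's quasi-likelihood test 7 genes passed (0.151%), with 6 higher (0.129%) and 1 lower (0.0215%) in mt/hGRF; an unadjusted p under 0.05 was reached by 274. The lone mt/hGRF library is assumed to vary as the other groups do. H2-Eb1, the β chain of the class II molecule I-E (GRCm38, chromosome 17, 34305867 to 34316674), was at 39.0 UMIs per 10000 in mt/hGRF against 0.71 and 1.50 in WT females 1 and 3. Its log2 fold change was 4.23 ± 0.72 (SE, adjusted p 3.8e-05), and 57 of 125 members had a UMI of it. With WT female 2 included the log2 fold change was 2.61 (adjusted p 0.000456), and the call was lost in DESeq2 (4.16, adjusted p 1). With Drop-seq libraries alone, where 1 mt/hGRF library stood against 1 WT female library, it was 4.92.

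H2-Eb1 varied widely across all libraries. It was at 19.6 in WT female 2, which did not enter the fit, at 19.4 in lactating 1 and 10.3 in WT male 3, and at 0.46 to 2.41 in the other 6. Libraries of the same group were thus on both sides, and H2-Ea-ps, the I-E α chain pseudogene, was at 10.1 in WT female 2, 3.53 in mt/hGRF and at most 1.67 in the other 8. The other 5 tested genes of MHC class II did not pass in mt/hGRF, with Cd74 at -0.56 ± 0.55 and H2-Aa at -0.24 ± 0.53 (log2 fold change, SE). Ccr1, a chemokine receptor gene, was at 1.92 against 0.11 and 0.21, from 25, 2 and 1 UMIs in 15, 1 and 1 members. Its fitted log2 fold change was 6.19 ± 1.15 (adjusted p 0.000276). The plain ratio of pooled levels was 14.7, with an exact 95% counting interval of 4.47 to 75.8. Unlike the fit, this ratio has no term for platform, and WT female 1 came from 10X Genomics. The log2 fold change of Ccr1 was 3.28 without WT female 1 and 3.31 with Drop-seq libraries alone, each with 1 WT female library left. In WT female 2 and WT male 1 the level of Ccr1 was 1.19 and 1.52.

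The 3 globin genes Hbb-bt, Hbb-bs and Hba-a1 were higher in mt/hGRF by log2 fold changes of 11.33 ± 1.12, 5.93 ± 0.67 and 6.19 ± 0.73 (adjusted p 4.37e-14, 1.73e-11 and 8.74e-11). However, 97.9% of the 3592 globin UMIs lay in 3 of the 125 members. Without WT female 3 the log2 fold changes of Hbb-bt, Hbb-bs and Hba-a1 were 11.42, 3.81 and 2.84. Without WT female 1 they were 11.28, 7.78 and 12.61. Gh was higher, at 215 against 82.2 and 10.3 UMIs per 10000 (log2 fold change 3.10 ± 0.75, adjusted p 0.0463), and at 1164 against 846 and 490.3 in the barcodes that were no members. WT female 2, outside the fit, had Gh at 230.1 in members and 1412 in other barcodes, both above mt/hGRF, and with it included the log2 fold change was 1.28 with an adjusted p of 0.852. The gene that was lower was Cxcl13 (fitted log2 fold change -5.99 ± 0.80, adjusted p 1.48e-08), from the same 58 UMIs of WT female 3 against 2. Its plain ratio of pooled levels, with no term for platform, was 16.5 with a counting interval of 4.36 to 139. Without WT female 3 none of the 7 passed and 146 genes had an unadjusted p under 0.05. The lists of macrophage identity, microglia and lysosome gave 0 calls in edgeR and in DESeq2 and 0, 1 and 0 genes with an unadjusted p under 0.05, with P2ry12 at 0.13 ± 0.48, Ms4a7 at 0.14 ± 0.48 and Csf1r at -0.44 ± 0.48 (log2 fold change, SE).

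Immediate-early genes, which dissociation of tissue can induce, differed between libraries as well. Their summed level in members was 15.4 to 57.4 UMIs per 10000 in 9 libraries and 153 in WT female 2, where Fos reached 51.7 and stood at 0.12 in the other barcodes. The 87 Fos UMIs there came from 7 of 17 members, with 36 in 1 of them and 75.9% in 3. Of 14 tested, 0 passed in edgeR or DESeq2 by sex, in lactation or in mt/hGRF, and 1, 0 and 3 had an unadjusted p under 0.05. Receptors for steroids and peptides were sparse: Ghr had 0 UMIs in 831 members, Prlr 16 and Esr1 13, while Nr3c1, the glucocorticoid receptor gene, was seen in 12.2% of members at 1.28 ± 0.75. Prlr was lower in members than in other barcodes in each of the 9 libraries, at 0.16 ± 0.19 against 1.41.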

How the data were processed

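Single-cell RNA libraries of whole mouse pituitaries were read from the deposited tables, which hold raw counts of UMIs per gene symbol and barcode as the authors made them. Per the submitters' processing notes and the study's methods, Drop-seq reads were aligned to mm10 with STAR 2.5.2a, counted on exons, and UMIs within an edit distance of 1 were merged by the authors. For 10X Genomics they used Cell Ranger, whose version is not given in the sources used here.

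Drop-seq barcodes with at least 300 UMIs and 100 to 4000 genes, and 10X Genomics barcodes with 201 to 2999 genes, were kept when mitochondrial genes took a share under 0.1 and ribosomal protein pseudogenes a share under 0.01 of UMIs. Members were chosen by the gene rule given above. No doublets were removed. Endothelial barcodes carried at least 2 endothelial genes and no C1q UMI. Levels are summed UMIs of a gene per 10000 summed UMIs of the cells. Depth per library is given as kept barcodes and median UMIs, and fewer cells or UMIs widen the error of a level.

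Shares were compared by exact permutation tests. UMIs of members were summed per library and fitted over all groups, with the platform as a further term, with edgeR 4.0.16 in R 4.3.3 (quasi-likelihood test, TMM, Benjamini-Hochberg adjustment over 4649 genes, genes of the rule left out), with libraries of at least 20 members. DESeq2 1.42.0, other filters, gates and library sets were alternatives. The scripts (Python 3.11.15) were tested on simulated data. Samples were grouped by their titles. The titles give the Drop-seq WT libraries aged 8 weeks a number shared by a female and a male library, whose meaning they do not state. Deviations from the group means correlated within pairs with r = 0.867 (WT libraries 1, 10X Genomics), 0.456 (libraries 2) and 0.607 (libraries 3). The libraries were taken as pairs from the data. The pair of libraries 1 shares its platform, and across the Drop-seq pairs r was 0.367 and 0.380, so sharing a platform and sharing a number are hard to tell apart.

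Named genes are those of the rule and of the gene lists that a result turns on, the 25 with the largest log2 ratio to other barcodes (at least 50 UMIs, higher in every library with at least 20 members), and up to 10 called genes in each direction per comparison. H2-Ea-ps, Ftl1 and the genes leading either subset were named after their values were seen. The members and the lists were chosen with earlier results of these data known. Some genes of the lists are not reported here by name. Coordinates come from GENCODE vM21 on GRCm38.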

Additional observations from a re-analysis of the deposited data

Results flagged for a closer look

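Outside the quality limits, 351 barcodes of the 213675 set aside carried the gene combination by which members were chosen, a signal in data that the comparisons do not use. Of these, 189 had a pseudogene share above the limit, 147 too few UMIs or genes and 95 a mitochondrial share above the limit, and a barcode can fail more than 1 limit. They numbered 63 in WT female 2, 74 in lactating 1 and 46 in WT male 2 and 9 to 33 in the other 7 libraries. In WT female 2 they outnumbered the 17 members, and 58 of the 63 failed the limit on pseudogenes. Whether they are whole cells was not tested.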

How the results depend on the processing

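The share by sex reversed without WT male 2, at -0.47 points (range over replicates left out -0.47 to 1.70), and was 0.78 points with p = 1 under the sign-flip permutation of the replicate block. Calls numbered 4 by sex, 9 in lactation and 7 in mt/hGRF. DESeq2 made 1, 1 and 1. Without a filter on low counts there were 0, 0 and 0, with 249, 317 and 398 genes at an unadjusted p under 0.05 in edgeR. Xist by sex was lost there too, at a log2 fold change of -10.09, so that setting cannot tell which calls hold. Drop-seq libraries alone gave 1 call in lactation. By sex and in mt/hGRF they left only 1 WT female library, so no calls are given for these comparisons. Only the libraries compared gave 2 by sex and 0 in lactation (110 at an unadjusted p under 0.05), and could not be run for mt/hGRF, where 3 libraries in 2 groups with a platform term leave no residual degrees of freedom. With DESeq2 size factors in edgeR lactation had 14 calls, and without members that carried 3 or more genes of hormone cells, an alternative chosen after seeing the data, 15. The replicate block gave 7 by sex, and 3 with WT female 2 included. Leaving out 1 replicate at a time gave 1 to 4 calls by sex, 6 to 10 in lactation and 0 to 8 in mt/hGRF; the single virgin and mt/hGRF libraries could not be left out.

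Of 227 values of single genes under these alternatives, 136 kept direction and side of the threshold, 87 lost the call and 4 reversed. The reversed ones were Hba-a1 by sex, with log2 fold changes of 5.63 by Drop-seq alone, 5.60 without WT female 1 and 5.72 without WT male 1, and Cxcl13 in mt/hGRF, at 3.88 without WT female 3. Over all replicates left out in turn, these included, Hba-a1 by sex ran from -4.19 to 5.72 and Cxcl13 in mt/hGRF from -6.02 to 3.88. For Cxcl13, the library left out holds all but 2 of the UMIs compared. For Hba-a1, each setting that reversed left the sexes to be compared within Drop-seq libraries alone. There WT female 3 had 0 UMIs and WT males 2 and 3 had 3 each. Limits: with 1 virgin and 1 mt/hGRF library, condition and library cannot be told apart; WT female 2 had 17 members; background hormone RNA was not subtracted.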
